A study of Caenorhabditis elegans with 27 samples.

Results

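Gene expression was compared between 2 late ages of the nematode Caenorhabditis elegans on a diet with black rice extract (BRE). The animals were of the wild-type strain N2. They were grown at 20 °C on Escherichia coli OP50, the usual laboratory food bacterium, with the extract added from the last larval stage, L4. The comparison takes 6 of the series' 27 libraries, 3 labelled day 17 and 3 labelled day 15, and asks which transcripts changed over this last step of the time course. The controls used beside it are 3 day 15 and 3 day 17 libraries of N2 worms on OP50 with no extract. Of the extract concentrations given in the labels (0, 0.42, 1.04 and 1.67 mg per mL), the one used for the sequenced worms is not stated. About 1000 whole worms went into each sample, so every value is a mean over tissues and animals. In such bulk samples fewer cells of a type and less RNA per cell cannot be told apart. The labels call the 3 libraries of a group biological replicates and do not say whether they came from separate cultures. The p-values therefore measure the spread between these samples.

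Of 46934 genes in the deposited count table, 19290 had counts enough to test. The 6 libraries held between 123.32 and 152.44 M counts. Levels are given as CPM, counts scaled to each library's normalized total, and differences as log2 day 17 minus day 15 with a standard error (SE). A gene was called at an adjusted p under 0.05 over all genes tested.

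The intestine of C. elegans is a single tube of large cells that digests bacteria, stores fat, makes the yolk for the oocytes and defends the animal against ingested microbes. Its cells take up material into acidic lysosomes and gut granules filled with proteases, lipases and saposin-like proteins, and they secrete lysozymes and lectins into the gut lumen. Old worms accumulate bacteria in the gut, and the tissue is known to waste with age.

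One library stood apart from the others before any test. BRE day 15 replicate 1 lay at -75.58 on the first principal component of the 6 libraries, which held 36.7% of the variance, and the other day 15 libraries lay at -6.01 and -9.93. In it 57 genes reached at least 5 CPM and at least 8 times the level of both other day 15 libraries, and 34 of these were cuticle collagen genes, which build the worm's outer coat. The same count was 0 for the other day 15 libraries and between 0 and 2 for the day 17 libraries. The collagen gene col-73 stood at 26.3 CPM in that library, at 0.0583 and 0.0664 CPM in the other day 15 libraries and at no more than 0.0405 CPM at day 17. The acyl-CoA dehydrogenase gene acdh-1 stood at 35.5 CPM there and at 0.466 and 0.118 CPM in the others of day 15. Results that rest on this library are given with and without it.

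Far more genes were called lower than higher from day 15 to day 17. Of the 19290 genes, 238 (1.23%) were called, 225 lower (1.17%) and 13 higher (0.0674%). Of the lower genes 186 fell at least 2-fold, and 3 of the higher genes rose that much. The median difference of the 225 was -1.52, a 2.87-fold fall, while the median over all genes was -0.01. Over all 19290 genes 51.8% had a negative difference. At an unadjusted p under 0.05, 1264 were lower and 553 higher. Counts of list members given below stand beside these shares. In 223 of the 225 and in all 13 of the higher genes the groups did not overlap; over all genes tested, all 3 day 17 libraries lay below all 3 day 15 libraries in 10.6% and above them in 9.96%. Without BRE day 15 replicate 1, 155 genes were called, 147 lower and 8 higher, and 138 of them were among the 238. The imbalance was smaller in other settings. With only the 6 libraries in the fit 160 were lower and 60 higher, and DESeq2 called 437 lower and 140 higher.

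**Figure D1:**
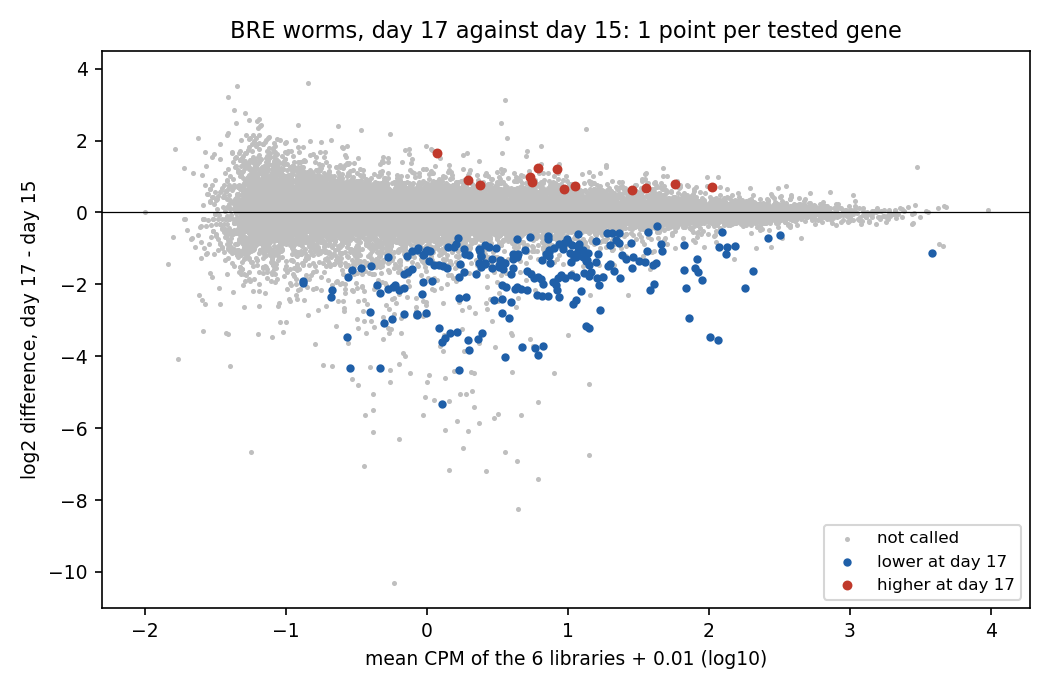
Each point is 1 of the 19290 tested genes, with the mean CPM of the 6 BRE libraries on a log10 axis and the log2 difference between days 17 and 15. The 225 genes called lower are blue and the 13 called higher are red and most called points lie below 0.

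By gene class, 221 of the lower genes and all 13 of the higher ones were protein coding, against 17659 of all 19290 genes tested. Among the lower ones 3 were pseudogenes, of 1051 tested, and 1 was a lincRNA, of 112 tested. Among the nuclear chromosomes the share called lower ran from 0.453% of the genes tested on chromosome I to 1.8% on the X chromosome. Among the called genes, 81 were members of at least 1 of 52 lists of known genes and 157 were in none. How many of all tested genes are in a list was not counted, so these numbers cannot be set against a background.

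Lysozymes, enzymes that break bacterial cell walls, were called lower in part. Of 15 tested lysozyme genes 6 fell and none was called higher, with a median of -1.03. Without BRE day 17 replicate 1, 4 were called lower and the median was -0.62; it was -0.68 without BRE day 15 replicate 2, and 5 were called without BRE day 15 replicate 1. The invertebrate-type lysozyme gene ilys-5 (chromosome X, 6533490 to 6536840, WBcel235) stood at 37.2, 19.9 and 19.9 CPM in the day 15 libraries and at 2.14, 2.16 and 3.96 CPM at day 17. Every day 17 library was far below every day 15 library, and the fall of 3.22 log2 units (SE 0.389, adjusted p = 7.46e-05) was 2.84 without BRE day 15 replicate 1. The amoebozoan-type lysozyme gene lys-7 (chromosome V, 3481432 to 3482600), which the transcription factor DAF-16 is known to raise, stood at 198, 375 and 313 CPM at day 15 and at 46.6, 88.2 and 72.9 CPM at day 17. It fell by 2.09 log2 units (SE 0.31, adjusted p = 0.000494), with replicate 1 the lowest of the day 15 libraries. The related genes lys-8 (log2 difference -1.78) and lys-2 (-2.50) fell as well and held under every alternative tried. lys-1 fell by 1.41, a call lost without BRE day 17 replicate 1 (adjusted p = 0.0505). lys-4 fell by 2.12, a call lost without BRE day 15 replicate 1 (0.104) or BRE day 17 replicates 1 (0.134) or 2 (0.0884). lys-3, which was not called, stood at 22.8 CPM at day 15 and 47.7 CPM at day 17 (log2 difference 1.06, adjusted p = 0.436). lys-1 and lys-2 lie next to each other on chromosome V.

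Saposin-like proteins of the spp family, several of which punch holes in bacterial membranes, were also called lower in part. Of 27 tested genes 9 fell and none was called higher, with a median of -0.64. Without BRE day 17 replicate 1, 5 were called lower; without any other single library 7 or 8 were, and the median was -0.40 without BRE day 17 replicate 2. The gene spp-14 (chromosome X, 7725979 to 7726383) stood at 88.4, 134 and 115 CPM at day 15 and at 17.5, 33.8 and 27 CPM at day 17. It fell by 2.11 log2 units (SE 0.267, adjusted p = 0.000121), and no day 17 library reached the lowest day 15 library. spp-5, whose product is a known pore-forming antibacterial protein of the gut, went from 92.4, 111 and 97.5 CPM to 31.6, 31.4 and 35.6 CPM. That was a fall of 1.61 log2 units (SE 0.275, adjusted p = 0.00194), with tight groups on both days. spp-17 fell by 3.54 and spp-3 by 2.02. spp-2, spp-3, spp-4 and spp-5 lie side by side on chromosome X, and all 4 were called lower; spp-2 (-1.83) was chosen after its values were seen, and so was spp-4 (-3.36), whose call was lost without BRE day 15 replicate 1 (adjusted p = 0.235) or BRE day 17 replicates 1 (0.144) or 2 (0.0967).

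Several proteases of the gut and its lysosomes were called lower. Of 14 aspartyl protease genes 4 fell and 13 were negative, with a median of -1.1. Of 8 cathepsin B-like genes 3 fell and 6 were negative, with a median of -0.98; 2 were called without any 1 of the libraries other than BRE day 15 replicate 3. The cathepsin D-like gene asp-3 (chromosome X, 6791064 to 6792709) stood at 151, 145 and 130 CPM at day 15 and at 19.7, 60.5 and 35.4 CPM at day 17. The day 15 libraries were close together and the day 17 libraries spread widely, all below them, and the fall was 1.88 log2 units (SE 0.313, adjusted p = 0.00147). asp-13 fell by 2.94 and asp-2 by 2.71. asp-5, the last of the 4 and chosen after its values were seen, fell by 1.53, a call lost without BRE day 17 replicate 1 (adjusted p = 0.0593). Among the cathepsin B-like genes, cpr-6 (chromosome X, 6607207 to 6609045) went from 218, 155 and 175 CPM to 83.9, 80.5 and 84 CPM, a fall of 1.14 (SE 0.185, adjusted p = 0.00121) with no overlap. cpr-9 fell by 2.16. cpr-1 fell by 1.63, a call lost without any 1 of 5 of the 6 libraries (adjusted p between 0.0527 and 0.315), the exception being BRE day 15 replicate 3. The cathepsin A-like gene ctsa-1.2 stood at 45.6, 17.7 and 9.1 CPM at day 15 and at 1.94, 3.63 and 2.51 CPM at day 17. It fell by 3.16 (SE 0.46, adjusted p = 0.000459) and by 2.31 without BRE day 15 replicate 1, the highest library.

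Other enzymes of the lysosome were called lower too, though these were chosen after their values were seen. Among those that held under every alternative tried were aagr-1, of the acid alpha-glucosidase family (-1.81, adjusted p = 0.000677), and the beta-galactosidase gene bgal-2 (-1.57, 0.000494). The DNase II gene nuc-1 (-1.07, 0.00674) and the cathepsin Z gene cpz-2 (-0.85, 0.00261) held too. Less steady were asm-2 (-1.21), gba-1 (-1.03), asah-2 (-0.95) and acp-6 (-2.12). Their calls were lost without between 2 and 6 of the libraries taken out in turn (adjusted p between 0.0565 and 0.313). How many lysosomal enzymes were tested in all was not counted. bgal-2 and asp-3 are neighbours on chromosome X. The 38 genes of the vacuolar proton pump, the lysosome membrane and autophagy held 0 calls by edgeR, 1 by DESeq2 and a median of -0.03, with 1 gene lower and 1 higher at an unadjusted p under 0.05.

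Genes of fat metabolism were called lower in part, and each edgeR call was lost without some of the single libraries. Of 26 genes of fatty acid oxidation and lipolysis 4 fell, 3 of them for lysosomal lipases, and the list's median was -0.12. The count was 0 without BRE day 17 replicate 1, 1 without BRE day 17 replicate 3 and 2 without BRE day 15 replicate 1 or 2. The lipase gene lipl-5 stood at 21.2, 40.2 and 48.2 CPM at day 15 and at 6.72, 15.1 and 9.2 CPM at day 17, without overlap. It fell by 1.82 (SE 0.358, adjusted p = 0.0075), a call lost without BRE day 17 replicates 1 (0.0863) or 3 (0.0612). lipl-1 fell by 2.29, lost without the same libraries (0.0972 and 0.0838). The fourth member, lipl-4, named after its values were seen, fell by 1.55 and lost its call without 4 of the libraries in turn, BRE day 15 replicates 1 and 2 and BRE day 17 replicates 1 and 2 (adjusted p up to 0.128). ech-7, an enoyl-CoA hydratase gene, fell by 1.44 and lost its call without any library but BRE day 17 replicate 2 (up to 0.217). Of 18 genes of fatty acid synthesis and desaturation only the delta-12 desaturase gene fat-2 was called by edgeR, and 4 by DESeq2; fat-2 went from 247, 374 and 356 CPM to 185, 226 and 182 CPM, a fall of 0.72 that was lost without 4 of the libraries in turn, BRE day 15 replicates 2 and 3 and BRE day 17 replicates 1 and 3 (up to 0.153).

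Immune genes of the gut under the control of the p38 kinase PMK-1 fell in 6 of 9 tested cases, and all 9 had a negative difference, with a median of -2.50. The gene C17H12.8 (chromosome IV, 6818703 to 6820575) stood at 16.9, 3.93 and 14.1 CPM at day 15 and at 0.682, 0.453 and 1.1 CPM at day 17. It was low in every day 17 library, and the fall was 3.97 log2 units (SE 0.59, adjusted p = 5e-04), or 3.57 without BRE day 15 replicate 1. clec-85, a C-type lectin gene, fell by 1.7. sysm-1 went from 3.96, 2.32 and 4.82 CPM to 0.0487, 0.473 and 0.267 CPM, a fall of 3.83 (SE 0.732, adjusted p = 0.00587) that was lost without BRE day 17 replicate 1 (0.0592). The other members called were lys-2, K08D8.5 (-3.07) and dod-22 (-4.32), the last 2 chosen after their values were seen, and both stood under 1.4 CPM in each of the 6 libraries compared. Without 1 library the list had between 5 and 8 calls, 6 of them with a median of -2.15 without BRE day 15 replicate 1.

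C-type lectins, sugar-binding proteins of which many are secreted in the gut, held 18 lower genes and no higher one among 176 tested. Without BRE day 15 replicate 1, 11 were called lower, without BRE day 17 replicate 1, 10, and without BRE day 17 replicate 3, 11; DESeq2 called 29. Their median was -0.36, and -0.14 without BRE day 15 replicate 1. clec-186 stood at 17.7, 8.65 and 10.1 CPM at day 15 and at 1.61, 3.58 and 2.13 CPM at day 17. It fell by 2.32 (SE 0.308, adjusted p = 0.000186), without overlap. clec-50 fell by 2.03 and clec-173 by 1.45, and these 3 lectin calls held under every alternative tried. Of 46 tested antimicrobial peptide genes none was called by edgeR and 2 by DESeq2. The median of the 46 was -0.47, or -0.30 without BRE day 17 replicate 1. At an unadjusted p under 0.05, 12 were lower and none higher, against 1264 and 553 of all 19290 genes.

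**Figure D2:**
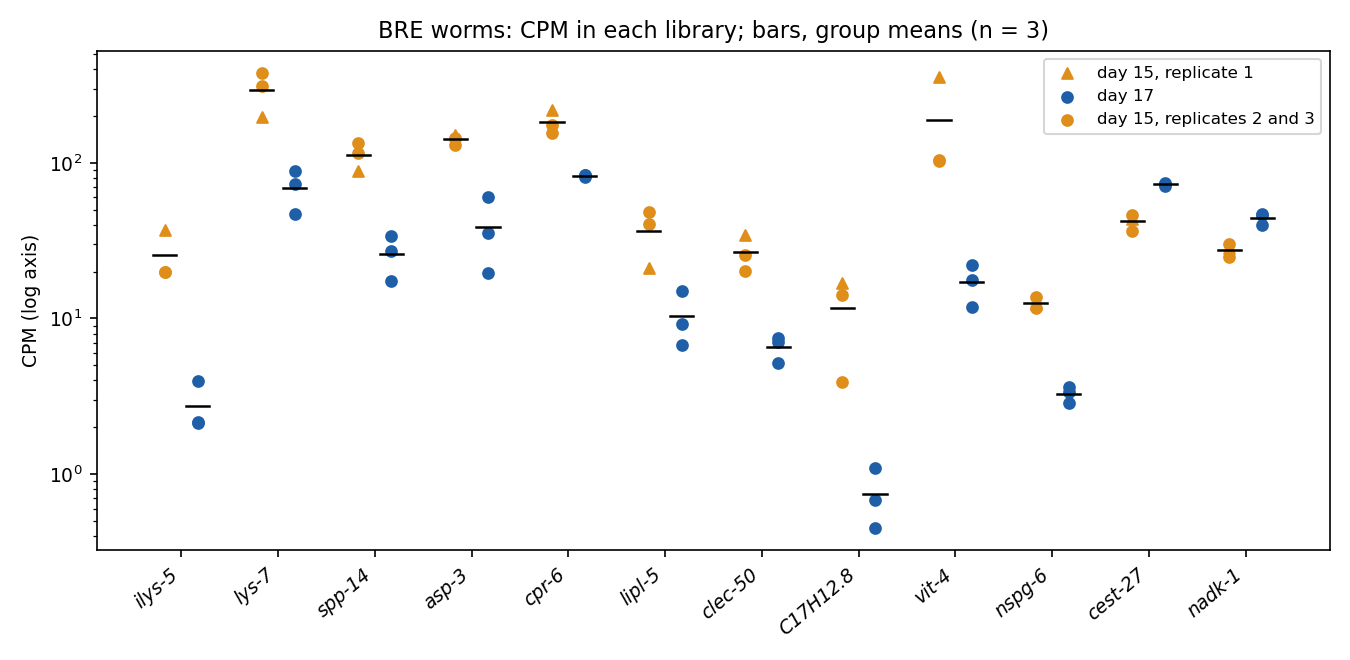
CPM on a log axis in each of the 6 BRE libraries for 12 genes, with day 15 in orange (replicate 1 as triangles), day 17 in blue and the mean of each 3 libraries as a bar. In the first 10 genes every day 17 library lies below every day 15 library, and in cest-27 and nadk-1 every one lies above; vit-4 shows replicate 1 of day 15 far above the other day 15 libraries.

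Most yolk protein genes were called lower at day 17. All 6 had a negative difference, 4 were called, and the median was -2.03. vit-4 (chromosome X, 3558769 to 3563965) stood at 355, 105 and 102 CPM at day 15 and at 11.9, 22 and 17.6 CPM at day 17. It fell by 3.45 (SE 0.52, adjusted p = 0.000581), and by 2.59 without BRE day 15 replicate 1. vit-3 fell by 3.54 and by 2.42 without that library. vit-1 was at 293, 42.8 and 48.8 CPM at day 15 and at 21.6, 11.6 and 16.8 CPM at day 17. Its fall of 2.94 (adjusted p = 0.0158) shrank to 1.45 without BRE day 15 replicate 1 (0.316), and the call was also lost without BRE day 17 replicates 1 (0.0862), 2 (0.108) or 3 (0.0988). vit-5, named as the fourth called member after its values were seen, went from 6340, 4790 and 4570 CPM to 2030, 2560 and 2640 CPM. Its fall of 1.12 was lost without any 1 of the 6 libraries (adjusted p between 0.0646 and 0.351). vit-2 stood at 5550 and 3010 CPM on the 2 days (adjusted p = 0.164) and vit-6 at 6060 and 3190 CPM (0.139). The family took between 1.46% and 2.67% of all counts at day 15 and between 0.862% and 1.07% at day 17. Without BRE day 15 replicate 1, 2 yolk genes were called and the median was -1.2, and 2 were also called without BRE day 17 replicate 1, 2 or 3. Yolk genes are near copies of one another, so counts may be split among them, and vit-3 and vit-4 each overlap another annotated gene.

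A family of small proteins of unknown function, the nematode-specific peptides of group G, held the gene with the smallest p-value of the step, nspg-6. Family and gene were chosen after their values were seen, so the family's share of calls is fixed in part by that choice. Of 14 tested nspg genes 9 fell, with a median of -1.42. nspg-6 (chromosome III, 7313149 to 7314977) stood at 12.4, 13.7 and 11.6 CPM at day 15 and at 2.85, 3.61 and 3.35 CPM at day 17. Its fall of 1.94 log2 units (SE 0.202, adjusted p = 3.7e-05) was 1.94 without BRE day 15 replicate 1 as well. nspg-9 went from 15.8, 14 and 10.5 CPM to 3.51, 3.94 and 3.92 CPM and nspg-7.1 from 37.7, 26.2 and 33.1 CPM to 9.74, 9.61 and 11.7 CPM. The 9 called genes lie on chromosomes III, IV and X, 3 of them side by side on X. All 5 uncalled members stood under 1.4 CPM in both group means. Of these, nspg-1 stood at 1.37 and 1.39 CPM, a log2 difference of 0.02 (SE 0.245). nspg-7.2 was at -0.64, and nspg-3, nspg-5 and nspg-4 were at 0, 0.17 and 0.51. The called genes nspg-12 and nspg-11 were also low, at 1.91 and 1.48 CPM at day 15. Also without a named function, and chosen after their values were seen, ZK1320.2 (-2.17) and its neighbour ZK1320.3 (-1.80), M28.10 (-1.3) and F54D5.3 (-1.66) fell under every alternative tried.

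Cuticle collagen transcripts were high in 1 day 15 library. Of 159 tested collagen genes 9 fell, the median was -1.53 and 127 were negative. Their summed level was 1390 CPM in BRE day 15 replicate 1, between 335 and 466 CPM in the other day 15 libraries and between 303 and 347 CPM at day 17. Without that library 2 were called lower and the median was -0.25. The count was also low without BRE day 17 replicates 1 (1 gene), 2 (3) or 3 (2), and it was 15 without BRE day 15 replicate 2; DESeq2 called 43. col-101 stood at 31.5, 18.6 and 6.03 CPM at day 15 and at 2.31, 2.58 and 4.66 CPM at day 17. It fell by 2.55 (SE 0.426, adjusted p = 0.00147) and by 1.95 without that library, with the lowest day 15 value close to the highest of day 17. col-8 fell by 1.85, and its call was lost without BRE day 15 replicate 1 (0.0642) or BRE day 17 replicate 1 (0.0506). Of 78 hedgehog-related and patched-related genes 5 fell by edgeR and 7 by DESeq2. Without BRE day 15 replicate 1 or BRE day 17 replicate 1 edgeR called 0, without BRE day 17 replicate 2 it called 3 and without replicate 3 it called 1. grd-5 fell by 2.79, lost without that library (0.0733) or BRE day 17 replicate 1 (0.0593).

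Outside these lists, and where a day's mean reached 5 CPM, large falls were called for gfi-1 and bcf-1, neighbours on chromosome V. gfi-1 stood at 16.9, 1.5 and 1.74 CPM at day 15 and at 0.316, 0.365 and 0.565 CPM at day 17, a fall of 4.01 (adjusted p = 0.0133) that became 1.95 without replicate 1 of day 15 (0.3). bcf-1 stood at 28.2, 2.01 and 2.57 CPM and at 0.566, 0.784 and 1.05 CPM, a fall of 3.77 (adjusted p = 0.00943) that became 1.5 (0.316). Both calls were also lost without BRE day 17 replicate 1 (0.13 for gfi-1 and 0.107 for bcf-1), 2 (0.082 and 0.0632) or 3 (0.0634 and 0.0519). K12H4.7 was steadier, from 25.3, 4.94 and 7.3 CPM to 0.56, 0.905 and 1.38 CPM, a fall of 3.72 (SE 0.484, adjusted p = 0.00015) and 2.67 without replicate 1 of day 15. Below 5 CPM, C14C6.5 (-4.39) and F01D5.1 (-4.34) fell; both were named after their values were seen and held under every alternative tried. C42D4.3 fell by 3.75 from 7.33, 1.28 and 17.6 CPM, lost without BRE day 15 replicate 3 (0.0919) or BRE day 17 replicates 1 (0.0863), 2 (0.0726) or 3 (0.0932).

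**Figure D3:**
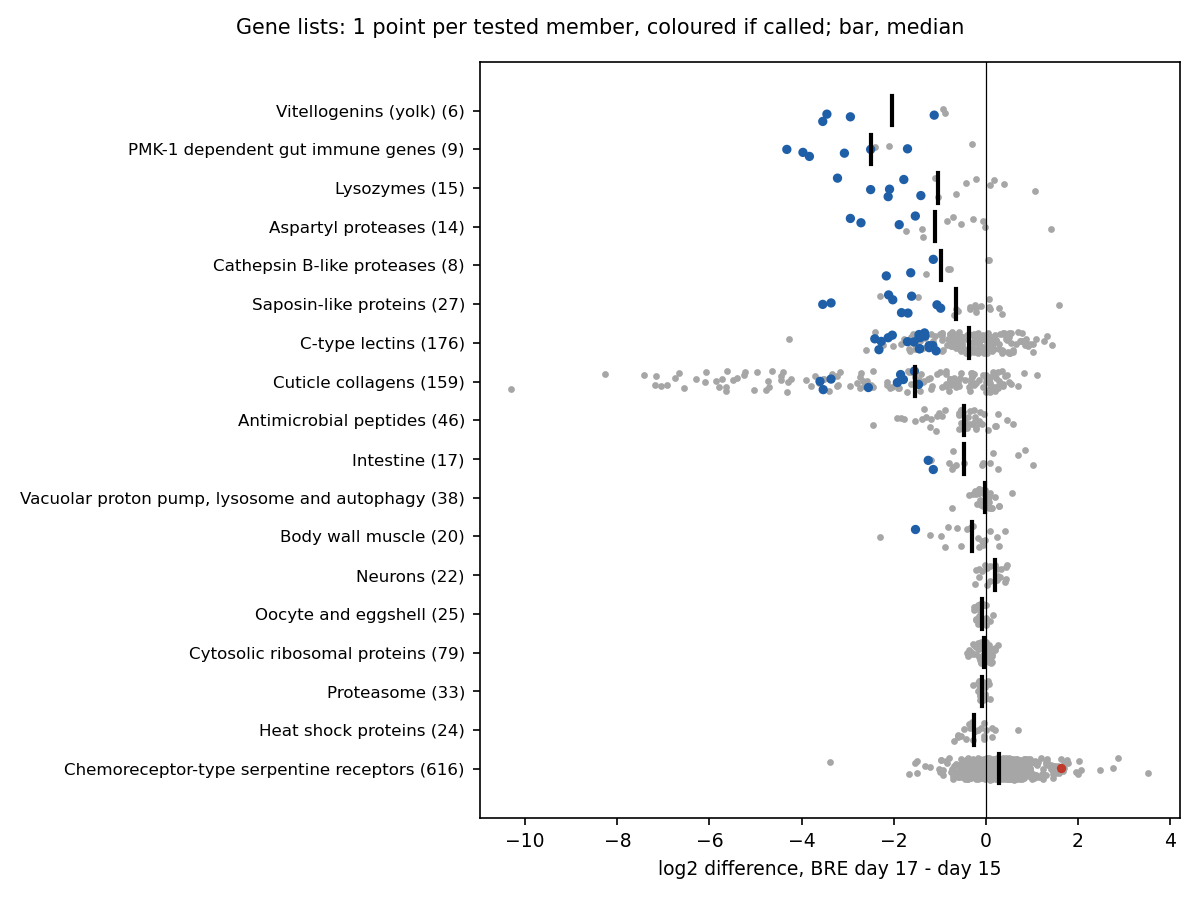
The log2 difference of every tested member of 18 gene lists, with called genes in blue (lower) or red (higher), the others in grey and the list median as a bar; the number tested stands in brackets. Most calls lie in the yolk, PMK-1, lysozyme, protease, saposin-like, C-type lectin (18 of 176) and cuticle collagen (9 of 159) lists. The antimicrobial peptide list holds 0 of 46, and ribosomal, proteasome and oocyte genes lie close to 0.

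The 13 genes called higher rose by between 0.63 and 1.64 log2 units, and each lost its call when at least 1 of the libraries was left out. cest-27, a carboxylesterase gene, stood at 43.4, 46.2 and 36.6 CPM at day 15 and at 74.7, 73.2 and 71.3 CPM at day 17. It rose by 0.80 (SE 0.166, adjusted p = 0.0132), without overlap, and lost its call without any library but BRE day 15 replicate 2 (adjusted p between 0.0527 and 0.0919). cyp-34A7, a cytochrome P450 gene, went from 4.05, 3.69 and 3.26 CPM to 7.53, 11.1 and 7.33 CPM. It rose by 1.24 (SE 0.263, adjusted p = 0.0143), lost without BRE day 15 replicate 3 (0.0691) or BRE day 17 replicate 2 (0.0919). nadk-1, an NAD kinase gene, went from 28.4, 24.7 and 29.9 CPM to 46.7, 40 and 46.3 CPM. It rose by 0.68, lost without BRE day 15 replicate 2 (0.0586) or BRE day 17 replicates 1 (0.0838) or 3 (0.0617). The neuropeptide-like gene nlp-67 (0.98), the P450 gene cyp-33C7 (0.73), the calpain gene clp-4 (0.71), the transporter gene svop-1 (0.65) and the intermediate filament gene ifa-4 (0.63) rose with no overlap between the groups. So did H13N06.2 (1.21), R13H4.5 (0.86) and the chemoreceptor gene sri-74 (1.64). These 8 calls were lost without between 2 and 6 of the libraries taken out in turn (adjusted p between 0.0526 and 0.248). R09H3.3 (0.76) and uev-2 (0.90), named after their values were seen, complete the 13. Without BRE day 15 replicate 1, 5 of the 13 kept their call. Of 73 P450 genes 2 rose and 1 fell.

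Many other lists held no call by edgeR. By edgeR and by DESeq2 none was called among 79 cytosolic ribosomal protein genes (median -0.03, 0 at an unadjusted p under 0.05), 33 proteasome genes (-0.09, 0), 41 nuclear-encoded respiratory chain genes (-0.10, 1), 25 oocyte and eggshell genes (-0.09, 0) or 22 germline genes (-0.02, 0). Neither tool made a call among 24 heat shock genes (median -0.25, and 0.19 without BRE day 15 replicate 2; 1 at an unadjusted p under 0.05), and 1 library of each day was high: hsp-70 stood at 171 CPM in BRE day 15 replicate 2 and 130 CPM in BRE day 17 replicate 2, and between 21.5 and 70.5 CPM in the other 4.

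Markers of tissues were read beside these groups. Of 17 intestine markers 2 fell, ges-1, the gut esterase gene (-1.25), and cpr-6, and 11 were negative. At an unadjusted p under 0.05, 7 were lower and 2 higher, against 1264 and 553 of all 19290 genes. The median of the list was -0.48, and -0.09 without BRE day 15 replicate 1. The 17 intestine markers summed to between 1250 and 1650 CPM at day 15 and between 1150 and 1200 CPM at day 17. These sums did not overlap, but the fall of cpr-6 alone was larger than the gap between them. Of the 17 genes, 6 had every day 17 library below every day 15 library and 1 had every one above. Over all genes tested, 10.6% and 9.96% did so. The 22 neuron markers summed to between 440 and 513 CPM and between 533 and 612 CPM, without overlap. In 4 of these 22 genes every day 17 library lay above every day 15 library, and in 0 below. The neuron list had 0 calls by edgeR and by DESeq2. Its median was 0.20, and 0.11 without BRE day 15 replicate 3 or 0.12 without BRE day 17 replicate 2. Body wall muscle markers summed to between 1150 and 2440 CPM and between 1470 and 1830 CPM; the 1 called, clik-1, fell by 1.54 and by 0.81 without BRE day 15 replicate 1 (adjusted p = 0.467), and was also lost without BRE day 15 replicate 2 (0.0586) or BRE day 17 replicates 1 (0.315), 2 (0.0801) or 3 (0.21). The part that tissue proportions play in the falls was not tested.

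The same step was read in worms on OP50 alone, which share no library with the BRE step. Of 19290 genes, 0 (0%) were called by edgeR between OP50 days 15 and 17, with 1469 at an unadjusted p under 0.05 and 112 called by DESeq2. Of the 225 genes called lower in BRE worms, 209 had a negative difference on OP50, against 9565 of all 19290 genes. At an unadjusted p under 0.05, 152 of the 225 were lower, against 938 of all 19290 genes. The OP50 median of the 225 was -0.71. All 13 genes called higher in BRE worms had a positive difference on OP50, with a median of 0.60. Of these, 12 were higher at an unadjusted p under 0.05, against 531 of all 19290 genes. Across all genes the 2 steps correlated with r = 0.30, where genes are not independent replicates.

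Whether the step differed between diets was tested gene by gene. No gene of 19290 (0%) was called by edgeR, with 498 at an unadjusted p under 0.05 and 8 called by DESeq2. The median SE of this difference was 0.42. On simulated counts the test found 17% of 2-fold and 55% of 4-fold changes, so 0 calls do not show that the steps were alike. The gene with the smallest adjusted p was F56D6.9 (0.133), which stood under 1 CPM in every one of these libraries. ilys-5 stood at 6.01, 10.3 and 12.2 CPM on OP50 at day 15, against 37.2, 19.9 and 19.9 CPM with BRE, and its group mean at day 17 was 5.68 ± 2.72 CPM on OP50 and 2.75 ± 1.05 CPM with BRE (SD, n = 3 each). The difference of its steps was -2.47 (SE 0.515, adjusted p = 0.383). C17H12.8 stood at 1.91 ± 0.734 and 1.72 ± 0.551 CPM on the 2 OP50 days (SD, n = 3 each), and the difference of steps was -3.81 (SE 0.776, adjusted p = 0.383). For nspg-6 it was -1.23 (SE 0.278, adjusted p = 0.585). Since the 225 genes were chosen for their fall in BRE worms, the larger size of that fall beside the OP50 step is fixed in part by the choice.

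**Figure D4:**
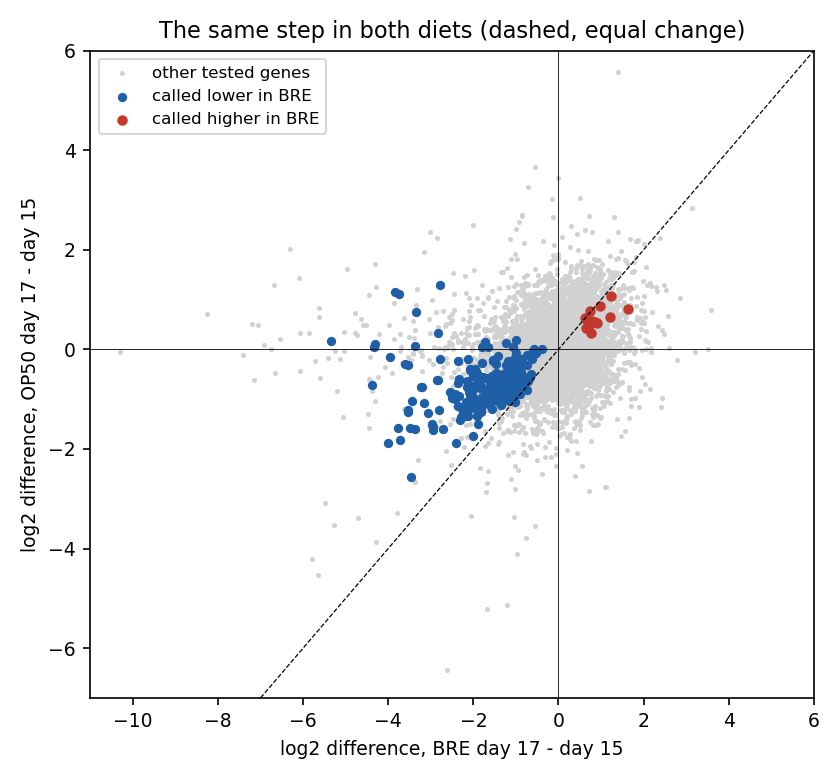
The log2 difference between days 17 and 15 in BRE worms (horizontal) and in OP50 worms (vertical), 1 point per tested gene, with equal change on the dashed line. Of the 225 blue genes 209 lie below 0 on the OP50 axis, against 9565 of all 19290 tested genes. All 13 red genes lie above 0 on it.

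Over the whole time course the medians of the called genes moved in the same direction before day 15, though the earlier steps were not tested. The median level of the 225 was 22.2 CPM at day 6, 19.8 CPM at day 11, 8.41 CPM at day 15 and 2.5 CPM at day 17 with BRE. On OP50 it was 31.2 CPM at day 1, 24.1 CPM at day 6, 15.4 CPM at day 11, 5.36 CPM at day 15 and 2.98 CPM at day 17. The median of all tested genes lay at 1.84, 2.42, 2.63 and 2.44 CPM with BRE on days 6, 11, 15 and 17. At day 15, 210 of the 225 had a lower mean on OP50 than with BRE, against 10215 of all 19290 genes. The choice of genes high in the BRE day 15 libraries favours the count of 210. The 13 higher genes had medians of 2.23, 4.03, 5.04 and 11.5 CPM with BRE on days 6, 11, 15 and 17, and of 1.25, 2.43, 3.98, 5.29 and 8.37 CPM on OP50 on days 1, 6, 11, 15 and 17. asp-3 shows the decline in single values, with 896 ± 187 CPM at day 6, 540 ± 85.7 CPM at day 11, 142 ± 11.2 CPM at day 15 and 38.5 ± 20.5 CPM at day 17 in BRE worms (SD, n = 3 each). lys-7 was highest in the middle, with 676 ± 131, 996 ± 282, 296 ± 89.8 and 69.2 ± 21.1 CPM on the same days, and stood at 35.3 ± 12.1 CPM in OP50 worms at day 1 (SD, n = 3 each).

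**Figure D5:**
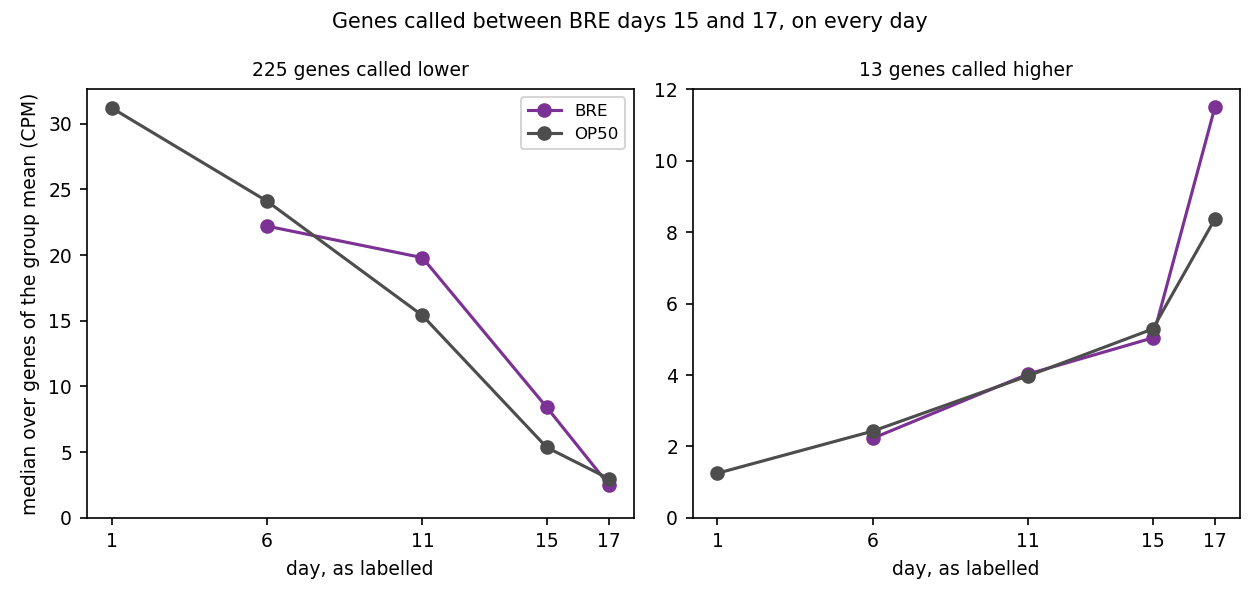
The median over genes of the group mean CPM for the 225 genes called lower (left) and the 13 called higher (right), by labelled day, with BRE in purple and OP50 in grey and no error bars. The lower genes go from 22.2 to 2.5 CPM between days 6 and 17 with BRE, and the higher genes from 2.23 to 11.5 CPM.

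Of the 225 lower genes, 82 kept their call under all 12 alternatives tried, 88 without each library in turn and 133 without BRE day 15 replicate 1, and none changed direction. The overlap of neighbouring annotations limits single genes, and the strand setting of the counting is not known. Of the 225, 74 overlap another gene, against 5487 of all 19290 tested genes. Among the 74 are gfi-1, ctsa-1.2, asp-2, lys-8, K12H4.7 and nspg-6.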

How the data were processed

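The authors deposited unnormalized gene counts for 27 libraries of 9 groups; all columns matched a library. Per the submitters' processing notes, HISAT2 2.0.5, SAMtools 1.7 and featureCounts were used; their settings, the build and the annotation are not given in these sources. Even numbers made up 54.5% to 68.9% of the counts from 1 to 20, so 1 count may not equal 1 fragment. Symbols and coordinates came from Ensembl release 115 (WBcel235), matched by gene ID (46924 of 46934).

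Differences were computed in R 4.3.3 with edgeR 4.0.16 (TMM, filterByExpr at a minimum count of 10, quasi-likelihood fit of 9 group means, Benjamini-Hochberg adjustment), and the fit was tested on simulated data. CPM uses the normalized library total. SE was taken as the log2 difference divided by the root of the F statistic. DESeq2 1.42.0, other scalings and filters, and leaving out each library were alternatives.

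Named genes were called genes of at least 5 CPM without overlap, up to 12 named and 3 with sequence names per direction by size, up to 3 members of each list by p, and those with the smallest adjusted p for the difference between diets. Genes and lists were chosen with earlier results of these data known.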

Additional observations from a re-analysis of the deposited data

How the results depend on the processing

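The BRE step gave 238 calls, and between 193 and 242 with RLE size factors, library totals, no filter or a replicate block. DESeq2 called 577 (140 higher, 437 lower), including all 238. With only the 6 libraries in the fit 220 were called, 60 higher and 160 lower, so that 72.7% of calls were lower against 94.5%; 136 were shared. RLE size factors gave 25 higher calls. Leaving out 1 library gave between 102 and 220 calls, between 97 and 218 lower and between 2 and 13 higher; the fewest came without BRE day 17 replicate 1 (102) and BRE day 17 replicate 3 (132), and 155 came without BRE day 15 replicate 1. The causes of these changes were not tested. The difference between diets had 0 calls, 1 without the low-count filter, 8 with DESeq2, and between 0 and 1 without 1 library (1 without OP50 day 17 replicate 2). The OP50 step had 0 calls, 3 with the replicate block, 112 with DESeq2, and between 0 and 78 without 1 library (78 without OP50 day 17 replicate 2). Same-numbered BRE libraries of days 15 and 17 correlated at 0.043, 0.053 and -0.069 in their deviations from the group means. Differently numbered BRE libraries ran from -0.09 to 0.038. On OP50 the same-numbered values were 0.267, 0.461 and -0.066, and the others ran from -0.49 to 0.248. Correlations over all genes cannot decide whether the numbers pair the libraries, since a pairing may touch few genes. The replicate block gave 230 calls in the BRE step, 202 of them shared, and 0 in the difference between diets. Without BRE day 15 replicate 1, chosen as a list-level alternative after the data were seen, the collagen median went from -1.53 to -0.25. The median SE of 0.297 in the BRE step limits single genes.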
